A study of Homo sapiens with 6 samples.

Results

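The early response to ZFP36L1 was read from 2 of the 6 samples of the series: J82 cells carrying an inducible ZFP36L1 construct (tet-ZFP36L1), untreated (0 h) and after 6 h of doxycycline at 1 µg/mL. J82 is an established human bladder cancer line, and the cells had reached 90% confluence when treatment began. The matching pair of tet-control, the same line labelled as control, at 0 h and 6 h of the same treatment, stood beside most named genes. Steady genes such as LGALS1, AXL and PKM are given with their tet-ZFP36L1 levels alone. Each of the 4 groups was 1 library, so no group had a replicate and no difference was tested. Whether each line was a clone or a pool, and what the tet-control construct holds, are not given in the sources used here. Doxycycline was present in both 6 h samples and absent from both 0 h samples.

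ZFP36L1 is a zinc finger RNA-binding protein of the ZFP36 family. Its members bind AU-rich elements, most often around the letters UAUUUAU, in the 3' UTR of short-lived mRNAs and recruit the enzymes that remove the poly(A) tail, after which the mRNA is degraded. Classical clients of the family are mRNAs of cytokines, growth factors, early response genes and cell cycle regulators, which is why falling and rising mRNAs are described here by the function of their products.

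The total of estimated counts was between 20739025 and 21380480 per library, and 11909 genes averaged 50 counts or more across the 6 libraries and were taken as measured, 11080 of them protein-coding. Levels are given as CPM, counts per 1000000 counts after TMM scaling. A change is log2(CPM + 0.5) at 6 h minus the same at 0 h, which understates the change of genes at low levels, and the control change is that of tet-control. "Fell" and "rose" are used for changes of at least 2-fold, that is -1 or below and 1 or above. Intervals are 95% intervals of counting error and hold no variation between cultures. Of 12 mesenchymal markers, 10 were measured, and their summed level went from 11544 to 13753 CPM in tet-ZFP36L1, against 1260.5 and 1689.6 CPM in tet-control. Most of this sum was FN1 (fibronectin), and without it the sums were 1635 and 1861 CPM against 878 and 973 CPM. The factors SNAI2, ZEB1 and ZEB2 went from 32.9 to 23.8, from 33.5 to 27.3 and from 44.6 to 24.7 CPM in tet-ZFP36L1. In tet-control they stood at 0.695 and 0.535, 31.1 and 36.1, and 22.0 and 20.4 CPM. The other measured mesenchymal markers were higher at 6 h in tet-ZFP36L1, among them CDH2 (160 to 251 CPM). In that line none of the 10 fell and 2 rose (beside 2.1% of all measured genes), ACTA2 (1.62 to 5.81 CPM) and SPARC (2.65 to 6.01 CPM). In tet-control ACTA2 stood at 2.33 and 1.61 CPM and SPARC at 3.87 and 1.66 CPM. Of 22 urothelial and epithelial markers, 7 were measured and 13, all uroplakins among them, stayed under 1 CPM in every library, while the keratin genes KRT7, KRT8 and KRT18 were present in all. Of 13 blood and endothelial markers found, none was measured. The lines differed before treatment: 601 genes (5.05%) were at least 2-fold higher and 330 (2.77%) at least 2-fold lower in tet-ZFP36L1 than in tet-control at 0 h. The part of that difference in the changes below was not tested.

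ZFP36L1 itself (ENSG00000185650; GRCh38 chr14:68787660-68796253, minus strand) went from 220.2 to 3127 CPM between 0 h and 6 h in tet-ZFP36L1, and stood at 234 and 223 CPM in tet-control. Its change was 3.82 (95% counting interval 3.78 to 3.87) against -0.07 in the control line, so the library labelled 6 h is the one with induced message. A transcript that held 89.1% of its counts at 0 h held 16.4% at 6 h. Reads of the construct and of the endogenous gene were counted together. Its relative ZFP36L2, a decay factor of the same family, went from 62.3 to 12.8 CPM (change -2.24) and from 34.3 to 44.7 CPM in tet-control (0.38). ZFP36, the founding member, was at 10.5 and 9.28 CPM (change -0.17, control change 0.22).

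Sites of the element are shown first, because the class results refer back to them. They were picked from the 4 largest falls of each class among genes with the element and a control change within 0.5 of 0. The 7 letters TATTTAT, the DNA spelling of UAUUUAU, were searched on the sense strand of each 3' UTR, with overlapping matches counted. The windows below are 30 bases of GENCODE 29 transcripts on GRCh38, read 5' to 3' along the transcript, with every full match in capitals.
IL1B (chr2:112829995-112830024, minus strand): cgcttcccTATTTATTTATTTATttgtttg
PLAU (chr10:73917417-73917446, plus strand): aaTATTTATatttcactattttTATTTATa
CSF3 (chr17:40016979-40017008, plus strand): atgTATTTATctctatttaaTATTTATgtc
EPHA2 (chr1:16125106-16125135, minus strand): cactggggacttTATTTATttctagttctt
IER3 (chr6:30743648-30743677, minus strand): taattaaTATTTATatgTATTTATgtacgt
SMAD3 (chr15:67194536-67194565, plus strand): ctggtgtttttaTATTTATgtaataatttc
PIM1 (chr6:37174988-37175017, plus strand): tatgTATTTATTTATTTATTTATttggttc
CCND1 (chr11:69652693-69652722, plus strand): ggctaaaaagtaTATTTATtgcagaggatg
IL1B and PIM1 hold overlapping runs of 3 and 4 matches in 1 window, PLAU, CSF3 and IER3 hold 2 separate matches, and EPHA2, SMAD3 and CCND1 hold 1. The 3' UTR of CCND1 is 3192 bases long with this 1 match, whereas the 610 bases of IL1B and the 737 of IER3 hold 4 each. A match is a description of the sequence and was not measured as a binding site. The 7 letters occur in the 3' UTR of 27.8% of 10985 measured genes with an annotated 3' UTR.

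In tet-ZFP36L1, 647 genes fell at 6 h, 5.43% of those measured, and 250 rose, 2.1%. In tet-control 265 fell (2.23%) and 289 rose (2.43%). The 647 lower genes had a median change of -1.28, and their median control change was -0.39. For 340 of them the control change lay within 0.5 of 0, for 269 it was -0.5 or below, and for 38 it was 0.5 or above. Of the 647, 109 also fell in tet-control and 12 rose there. Among the 250 higher genes the control line moved more often in the same direction: the median control change was 0.72, 85 of them rose in tet-control as well, and 83 had a control change within 0.5 of 0. Across 11075 protein-coding genes the changes of both lines, which share no library, had a Pearson correlation of 0.45 and a Spearman correlation of 0.43. That is a description across genes, and 6 h of doxycycline and culture are common to both pairs.

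**Figure D1:**
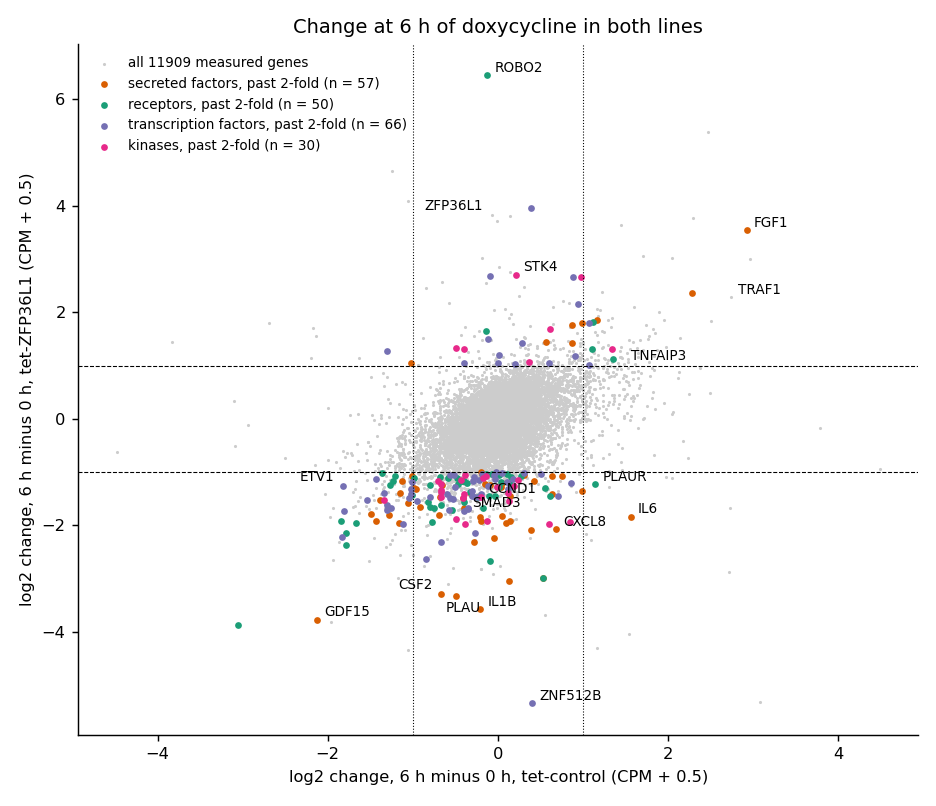
Change from 0 h to 6 h of each measured gene in tet-ZFP36L1 (vertical axis, log2) against that in tet-control (horizontal axis, log2), 1 library per group, with members of the 4 functional classes that passed 2-fold in tet-ZFP36L1 coloured and the 2-fold limits as lines. Coloured points below the lower line spread from the left to the right of the zero of the horizontal axis, so the same fall was accompanied by falls, no change or rises in tet-control.

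By function, secreted factors and receptors held the largest shares of lower genes. The functional lists and their members were chosen with earlier results of these data known, so the ranking is a description. Of 215 measured genes for secreted factors, 49 fell (22.8%), and 8 rose. Receptors came to 45 lower of 208 (21.6%), with 5 higher. Transcription factors came to 51 lower of 736 (6.93%), and kinases with their cyclins and inhibitors to 23 lower of 323 (7.12%). The transcription factor list is dominated by 465 C2H2 zinc finger genes, of which 7 fell (1.51%), and without them 44 of 271 fell (16.2%). The median change was -0.40 for secreted factors, -0.43 for receptors, 0.12 for transcription factors and -0.21 for kinases, beside -0.01 for all measured genes, and the control medians were -0.03, -0.07, 0.09 and -0.01. In tet-control 18 of the 215 secreted factors, 15 of the 208 receptors, 20 of the 736 transcription factors and 4 of the 323 kinases fell. The shares of all measured genes, to be read beside each group here and below, were 5.43% in tet-ZFP36L1 and 2.23% in tet-control. Secreted factors and receptors thus stood above the share of all genes in both lines.

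**Figure D2:**
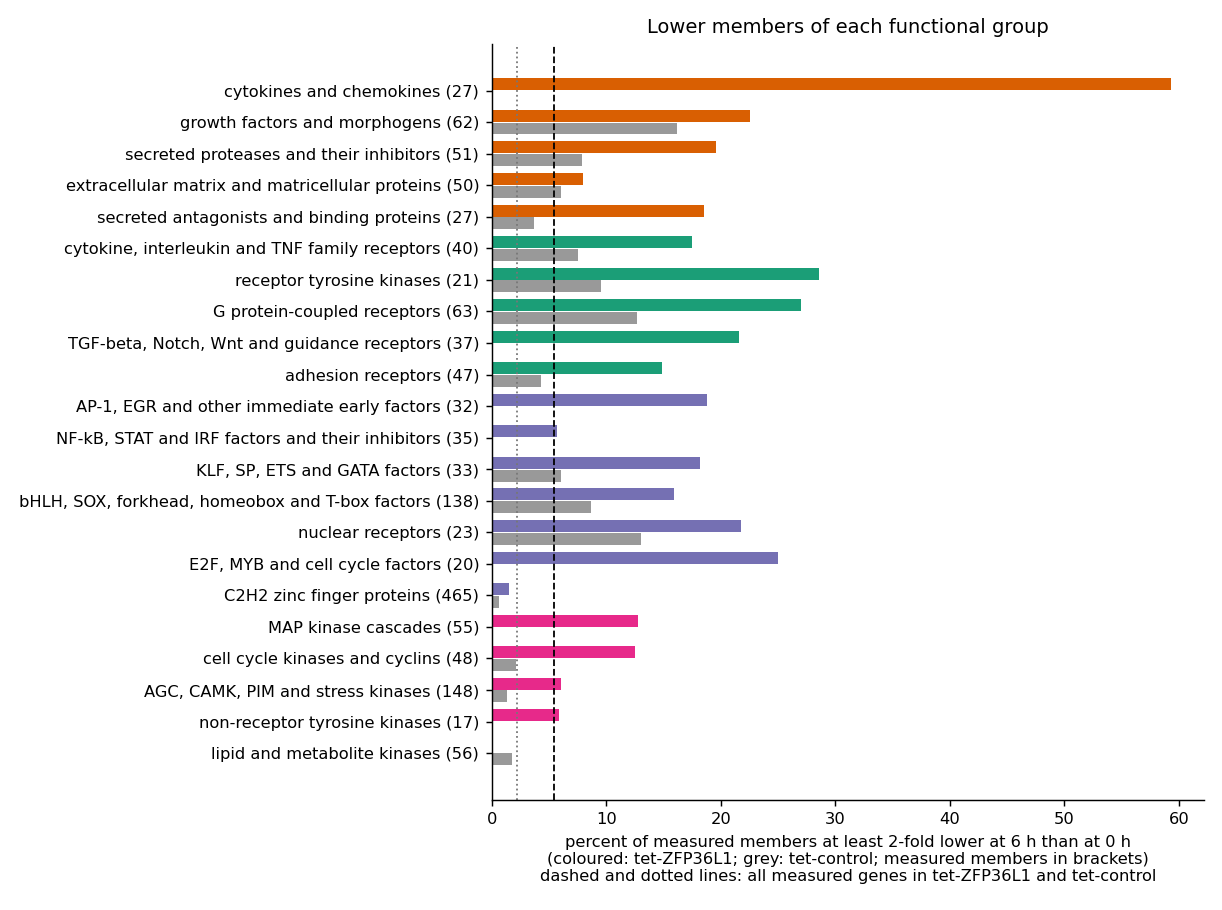
Percent of measured members of each functional group that were at least 2-fold lower at 6 h than at 0 h, coloured by class for tet-ZFP36L1 and grey for tet-control, with all measured genes as the dashed (5.43%) and dotted (2.23%) lines. The cytokine and chemokine bar reaches 59.3% in tet-ZFP36L1 with no grey bar beside it, whereas the C2H2 zinc finger bar stays at 1.51%.

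Cytokines and chemokines were the group with the highest share of lower genes. Of 27 measured, 16 fell in tet-ZFP36L1, none rose, and the median change was -1.18. In tet-control none of the 27 fell, 4 rose, and the median control change was 0.13. CSF3 and IL33 were too low in tet-control at 0 h to reach a 2-fold fall there with the pseudocount used, and of the other 25, 14 fell in tet-ZFP36L1. The 16 were IL1B, CSF2, CSF3, CSF1, CXCL8, CXCL1, IL33, IL6, TNFSF9, CXCL6, CD70, LIF, TNF, TNFSF12, CXCL2 and IL15. They started from unlike levels in the lines: 10 of the 16 were at least 2-fold higher in tet-ZFP36L1 than in tet-control at 0 h. The same held for 20 of the 49 lower secreted factors, for 19.3% of the 647 lower genes and for 5.05% of all measured genes. Lower RNA per cell and fewer cells that make a message cannot be told apart in bulk RNA, here and below.

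IL1B, the fever cytokine interleukin-1 beta whose clustered element is printed above, went from 1052 to 87.8 CPM in tet-ZFP36L1 and stood at 0.943 and 0.749 CPM in tet-control. Its change was -3.58 (95% counting interval -3.65 to -3.50), and the control line held almost none of the message at either time, so its control change of -0.21 says little. CSF3, the granulocyte colony-stimulating factor, had the same layout, with 38.1 then 4.20 CPM in tet-ZFP36L1 and 0.348 then 0.428 CPM in tet-control (change -3.04). CSF2, which drives granulocyte and macrophage growth and whose 318-base 3' UTR holds 7 matches, was present in both lines at the start. It went from 22.2 to 1.81 CPM (change -3.29) while tet-control went from 17.3 to 10.8 CPM (-0.66). The macrophage factor CSF1 went from 60.7 to 13.9 CPM (change -2.09), and the control change was 0.39.

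The neutrophil chemokine CXCL8 went from 932 to 221 CPM in tet-ZFP36L1 (change -2.08) and from 222 to 356 CPM in tet-control (0.68). The level reached at 6 h, 221 CPM, lay next to the starting level of the control line. CXCL1, another neutrophil chemokine, had a similar layout, with 1174 then 300.2 CPM (change -1.97) and 326 then 349 CPM (0.10). IL6, LIF, CXCL1 and TNF are named here after their values were seen. IL6, the acute-phase cytokine, moved in opposite directions in the lines, from 162 to 45.1 CPM in tet-ZFP36L1 (change -1.84) and from 44.6 to 133 CPM in tet-control (1.56). LIF, a cytokine of the same receptor family, fell from 412 to 154 CPM (change -1.42) with 195 and 304 CPM in tet-control (0.64). TNF, the classical client of the ZFP36 family, changed by -1.23, from 31.04 to 12.96 CPM, with a control change of -0.15.

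Growth factors and morphogens numbered 62, of which 14 fell (22.6%, beside 5.43% of all measured genes) and 3 rose (4.84%, beside 2.1%). In tet-control 10 of the 62 fell, 5 of them among the 14, beside 2.23% of all measured genes. GDF15, a stress-induced member of the TGF-beta superfamily, went from 18.4 to 0.881 CPM (change -3.77), and tet-control went from 39.7 to 8.72 CPM (-2.12). SHH and WNT7B, the morphogens, fell in both lines too: SHH went from 2.55 to 0.311 CPM against 32.6 to 11.8 CPM in tet-control, and it missed 2-fold in the deposited TPM (-0.91) and with a pseudocount of 5 CPM (-0.51). WNT7B changed by -1.96 with a control change of -1.16, and by -0.90 with a pseudocount of 5 CPM. TGFA and EREG, ligands of the EGF receptor family, fell in tet-ZFP36L1. TGFA went from 118 to 32.7 CPM (change -1.83) while tet-control held 57.1 and 58.96 CPM (0.05), and EREG changed by -1.92 with a control change of -0.20. The 3' UTRs of TGFA and EREG hold 2 and 4 matches.

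The plasminogen system, whose proteases cut fibrin and matrix at the cell surface, was represented by both activators. PLAU, the urokinase activator, went from 365 to 36.03 CPM in tet-ZFP36L1 (change -3.32, interval -3.43 to -3.21) and from 586 to 416 CPM in tet-control (-0.49). Its level in tet-ZFP36L1 was below that in tet-control at both times. PLAT, the tissue activator, went from 145 to 30.3 CPM (change -2.24) with 8.04 and 7.81 CPM in tet-control (-0.04). The urokinase receptor gene PLAUR fell from 101 to 42.7 CPM (change -1.23) while it rose from 46.8 to 104 CPM in tet-control (1.15). Among all 51 secreted proteases and inhibitors, 10 fell and none rose, and 4 fell in tet-control. TIMP2, an inhibitor of matrix metalloproteinases, changed by -1.47 (138 to 49.4 CPM) with a control change of -0.69, and ADAMTS5, which cleaves aggrecan, by -1.84 with a control change of -0.21 and by -0.96 with a pseudocount of 5 CPM.

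Secreted antagonists and binding proteins fell in 5 of 27 cases, and 1 fell in tet-control. TNFRSF11B, the soluble decoy receptor osteoprotegerin, which was also listed among the TNF family receptors, went from 74.01 to 8.92 CPM (change -2.98) against 21.7 to 31.5 CPM in tet-control (0.53). PTX3, a soluble pattern recognition protein, went from 88.6 to 17.5 CPM (change -2.31, control change -0.28). NOG, which blocks BMP ligands, changed by -1.18 with a control change of 0.42, and by -0.94 with a pseudocount of 5 CPM. The extracellular matrix was the secreted group with a share of lower genes near that of all genes: 4 of 50 fell (8.0%). Its share of higher genes was above that of all genes, as 5 of the 50 rose, beside 2.1% of all measured genes. The median change of the 50 was 0.06. In tet-control 3 of the 50 fell and 6 rose, beside 2.23% and 2.43% of all measured genes. Well expressed secreted genes that did not move included LGALS1 (galectin-1) at 773 and 678 CPM and CYR61, a matricellular protein, at 886 and 961 CPM.

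**Figure D3:**
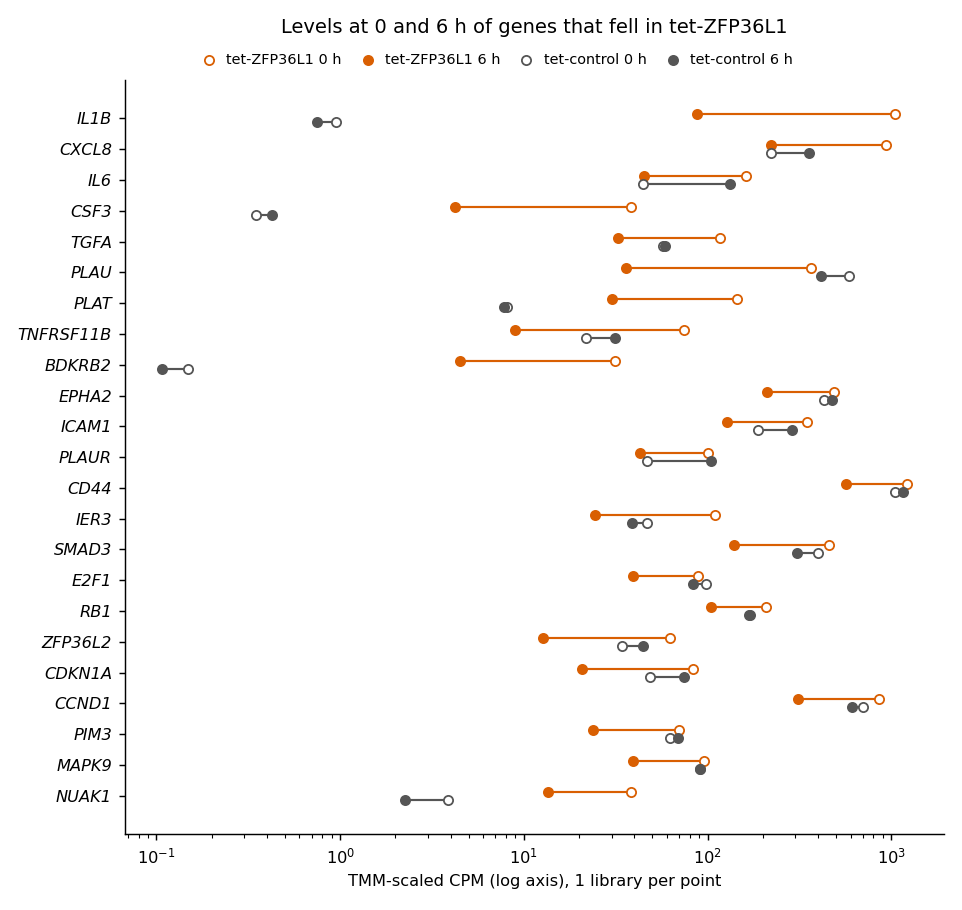
Levels of 23 genes that fell in tet-ZFP36L1, in TMM-scaled CPM on a log axis, with open circles for 0 h, filled circles for 6 h, orange for tet-ZFP36L1 and grey for tet-control, 1 library per point. Orange lines run from right to left in all 23, and the open orange circle lies beyond both grey ones except for PLAU, PLAUR and E2F1. PLAU starts below its control levels of 586 and 416 CPM and ends far below them.

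Receptors fell in all 5 groups of the list, at 14.9% to 28.6% of their measured members. G protein-coupled receptors had 17 lower of 63 (27.0%, beside 5.43% of all measured genes), with 3 higher (4.76%, beside 2.1%). BDKRB2, the bradykinin B2 receptor, went from 31.3 to 4.51 CPM (change -2.67) and was nearly absent from tet-control (0.149 and 0.107 CPM). The thrombin receptor F2R went from 22.2 to 5.44 CPM (change -1.94), with 32.1 then 18.6 CPM in tet-control (-0.77). GPRC5B, an orphan receptor, fell in both lines, by -2.14 in tet-ZFP36L1 and -1.79 in tet-control. In tet-control 8 of the 63 fell, 5 of them among the 17, beside 2.23% of all measured genes.

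Receptor tyrosine kinases fell in 6 of 21 cases, namely FGFR4, EPHB4, INSR, EPHA2, ERBB3 and MERTK, and 2 of the 21 fell in tet-control. EPHA2, an ephrin receptor with 1 of its 2 matches printed above, went from 487 to 209 CPM (change -1.22, interval -1.27 to -1.16) while tet-control held 431 and 476 CPM (0.14). INSR, the insulin receptor, changed by -1.56 with a control change of -0.40, but by -0.81 in the deposited TPM. EPHB4 (65.7 to 21.8 CPM, change -1.57) was lowered in tet-control as well, by a change of -0.83 that did not reach 2-fold. FGFR4 and ERBB3 fell in both lines, with changes of -1.95 and -1.18 and control changes of -1.67 and -1.24. With a pseudocount of 5 CPM the changes of FGFR4 and ERBB3 were -0.93 and -0.56. AXL, a receptor tyrosine kinase that binds GAS6, stood at 663 and 746 CPM.

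Cytokine, interleukin and TNF family receptors numbered 40, of which 7 fell and 3 fell in tet-control. The interleukin-1 receptor chain IL1R1 changed by -1.68 (7.27 to 1.92 CPM) with a control change of -0.18, but by -0.48 in the deposited TPM and -0.83 with a pseudocount of 5 CPM. Its partner chain IL1RAP changed by -1.44 (19.9 to 6.999 CPM) with a control change of -0.03. Both sit in the pathway of IL1B, whose message fell as given above. The largest change of the group, in TNFRSF6B, is uncertain, because all of its 31-base words also occur in the read-through gene RTEL1-TNFRSF6B, and it fell in both lines (-3.88 and -3.05).

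Among 47 adhesion receptors, 7 fell and none rose. CD44, the hyaluronan receptor, went from 1221 to 569.7 CPM (change -1.10) while tet-control held 1047 and 1165 CPM (0.15), although in the deposited TPM its change was just short of 2-fold (-0.995). ICAM1, the leukocyte adhesion ligand, went from 348 to 127 CPM (change -1.45) against 189 to 289 CPM in tet-control (0.61). ITGB1, the common integrin beta chain, was at 1192 and 1061 CPM, and BSG, an immunoglobulin superfamily glycoprotein, at 755 and 714 CPM. Guidance and morphogen receptors, with which the urokinase receptor gene PLAUR was listed, fell in 8 of 37 cases (21.6%), PLAUR among them. None of the 37 was lower in tet-control. The 8 included NRP2, a semaphorin and VEGF co-receptor (45.6 to 13.6 CPM, change -1.71, control change -0.53), and PTCH1, the hedgehog receptor (change -1.38, control change -0.32).

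Among transcription factors, 44 of the 51 falls lay outside the C2H2 zinc finger genes. Early response genes fell in 6 of 32 cases and rose in 2, with no fall in tet-control. IER3, a stress-response protein listed with these genes although it is no DNA-binding factor, went from 109.6 to 24.5 CPM (change -2.14) with 47.1 and 38.9 CPM in tet-control (-0.27). JUND, an AP-1 subunit, went from 75.7 to 33.4 CPM (change -1.17, control change -0.29). EGR1, the early growth response factor, rose from 19.5 to 56.2 CPM (change 1.503) while tet-control held 18.8 and 17.4 CPM (-0.11). ATF3, a stress factor, also rose, with a change of 1.19, a control change of 0.90, and 0.55 with a pseudocount of 5 CPM.

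SMAD3, which carries TGF-beta and activin signals to the nucleus, went from 460.2 to 139 CPM (change -1.72, interval -1.78 to -1.66), and tet-control went from 401 to 306 CPM (-0.39). MITF, the microphthalmia factor, went from 6.43 to 0.622 CPM (change -2.63, control change -0.84), but its change was -0.94 in the deposited TPM. HOXC4, a homeobox factor, changed by -2.31 with a control change of -0.67, and MXI1, an antagonist of MYC, fell in both lines, by -1.98 and -1.11. SMADs and factors of other families, RUNX2, TFAP2C, TEAD2 and NFIA among them, were listed with the bHLH, SOX, forkhead, homeobox and T-box factors. In this group 22 of 138 fell in tet-ZFP36L1 (15.9%, beside 5.43% of all measured genes). In tet-control 12 of the 138 fell, 7 of them among the 22, beside 2.23% of all measured genes. KLF2, an endothelial and immune quiescence factor that counts in 2 groups, changed by -1.26 with a control change of -0.11, and by -0.93 with a pseudocount of 5 CPM. GATA6 (23.4 to 8.87 CPM) changed by -1.35 with a control change of -0.30. For ETV1, an ETS factor, the control line fell further: 52.4 to 21.5 CPM in tet-ZFP36L1 and 34.5 to 9.42 CPM in tet-control, changes of -1.26 and -1.82.

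Several nuclear receptors, which switch genes in answer to hormones and lipids, fell in both lines. THRA, PPARG, HNF4G, PPARA and RARG fell, 5 of 23 (21.7%, beside 5.43% of all measured genes). In tet-control 3 of the 23 fell, all among these 5, beside 2.23% of all measured genes. The thyroid hormone receptor THRA went from 20.1 to 3.94 CPM (change -2.21) and from 14.1 to 3.58 CPM in tet-control (-1.83). The retinoic acid receptor RARG went from 49.5 to 18.5 CPM (-1.39) and from 32.3 to 12.5 CPM (-1.34). The levels of both genes were lower at 6 h than at 0 h in each line. With a pseudocount of 5 CPM, PPARG and HNF4G missed 2-fold (-0.68 and -0.59), as HNF4G did in the deposited TPM (also -0.68). PPARA, the fatty acid receptor, changed by -1.42 with a control change of -0.60.

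E2F, MYB and pocket protein genes, which time the entry into S phase, fell in 5 of 20 cases with none lower in tet-control. E2F1 went from 88.4 to 39.5 CPM (change -1.15, control change -0.23), and MYBL1 from 53.9 to 23.1 CPM (change -1.20) against 38.4 to 69.99 CPM in tet-control (0.86). RB1, the retinoblastoma repressor of E2F, lay at the threshold, from 209 to 104 CPM (change -1.01, control change -0.02), and it missed 2-fold in the deposited TPM (-0.90) and with a pseudocount of 5 CPM (-0.98). RBL2, its relative p130, changed by -1.09 with a control change of -0.29. FOXM1 and MYBL2, which drive late cell cycle genes, were at 353 and 317 CPM and at 310.4 and 334 CPM.

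NF-kB, STAT and IRF factors and their inhibitors had 2 of 35 lower (5.71%, near the 5.43% of all measured genes). These were BCL3 (-1.47, control change -0.26), a nuclear cofactor of NF-kB, and CEBPD, listed with the group although it is of another family. CEBPD changed by -1.48 with a control change of -0.79, and by -0.99 with a pseudocount of 5 CPM. C2H2 zinc finger genes, mostly repressors of the KRAB type, had a median change of 0.29 and a control median of 0.13. Against that direction, ZNF512B had the largest fall of all measured genes on this scale, from 63.99 to 1.09 CPM (change -5.34) with 72.1 and 95.1 CPM in tet-control (0.40). A single transcript held all of its counts at both times, and its 3' UTR of 3186 bases has no match.

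Of 323 kinase genes with their cyclins and inhibitors, 23 fell (7.12%, beside 5.43% of all measured genes), and in tet-control 4 of the 323 fell. The cell cycle group contributed 6 of 48 (12.5%), and 1 of the 48 fell in tet-control. CCND1, the G1 cyclin D1, went from 859 to 310.0 CPM (change -1.47, interval -1.51 to -1.43) with 706 and 613 CPM in tet-control (-0.20). Inhibitors of cyclin-dependent kinases were among the lower genes as well. CDKN1A (p21) went from 83.1 to 20.6 CPM (change -1.98) against 48.9 to 74.1 CPM in tet-control (0.60), and CDKN2D (p19) went from 15.4 to 3.53 CPM (change -1.98, control change -0.39). CDK5 changed by -1.35 with a control change of -0.67. CCNB1, the mitotic cyclin, stood at 371 and 373 CPM.

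MAP kinase cascades had 7 lower of 55 (12.7%, beside 5.43% of all measured genes) and none lower in tet-control. MAPK9 (JNK2) went from 96.1 to 39.2 CPM (change -1.28) while tet-control held 91.4 and 90.6 CPM (-0.01). Its 3' UTR in the chosen transcript is 197 bases long and has no match. MAP3K14, the NF-kB-inducing kinase NIK, was low throughout, at 2.80 and 0.363 CPM against 2.68 and 5.24 CPM in tet-control. Its change of -1.93 had an interval of -2.49 to -1.38 and was -0.54 with a pseudocount of 5 CPM. RPS6KA5 (MSK1), a kinase downstream of ERK and p38, changed by -1.88 (18.1 to 4.56 CPM) with a control change of -0.49.

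In the large group of AGC, CAMK, PIM and stress kinases 9 of 148 fell (6.08%), near the 5.43% of all measured genes. In the same group 6 rose (4.05%, beside 2.1% of all measured genes), and in tet-control 2 fell and 2 rose. The survival kinases PIM3 and PIM1 were among the lower ones: PIM3 went from 70.3 to 23.7 CPM (change -1.55) with 62.8 and 68.9 CPM in tet-control (0.13). PIM1, whose run of 4 overlapping matches is printed above, went from 17.8 to 6.07 CPM (change -1.48, control change -0.41). NUAK1, an AMPK-related kinase, went from 38.1 to 13.5 CPM (change -1.46) from a level far above that of tet-control (3.87 and 2.25 CPM). Lipid and metabolite kinases had no lower member among 56, and PKM, the glycolytic pyruvate kinase, stood at 3180.4 and 3225 CPM.

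Other regulators came to 42 lower of 574 (7.32%, beside 5.43% of all measured genes). Proteins that bind AU-rich elements or act in mRNA decay fell in 6 of 49 cases, the MEX3 genes MEX3A, MEX3B and MEX3D, BTG3 and ZFP36L2 among them, and ZFP36L1 was the 1 that rose. BTG3, an antiproliferative partner of deadenylases, went from 60.2 to 22.5 CPM (change -1.40, control change 0.09), while MEX3B fell in both lines (-1.76 and -1.05) and missed 2-fold with a pseudocount of 5 CPM (-0.95). MEX3A changed by -1.41 with a control change of -1.03, and by -0.85 in the deposited TPM. Solute carriers and channels had 20 lower of 205 and 5 lower in tet-control, with SLC2A1, the glucose transporter GLUT1, at 231 and 82.7 CPM (change -1.47) and 70.8 and 87.7 CPM in tet-control (0.31). Of 124 chromatin regulators 5 fell (4.03%, under the 5.43% of all measured genes), among them the deacetylase HDAC1 (235 to 105 CPM, change -1.16, control change -0.18). GTPases and their regulators came to 6 of 109 (5.50%), near the share of all measured genes. PHLDA2, an imprinted growth restrictor listed with apoptosis regulators, fell from 30.8 to 6.48 CPM (change -2.17) while it rose from 10.8 to 22.7 CPM in tet-control (1.04).

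Several of the largest falls belonged to no class. BAHCC1, a chromatin reader, went from 196 counts at 0 h to 0 at 6 h, and KIF24, a kinesin of the centrosome, from 192 to 0. Against a floor of 3 counts in the 6 h library these are at least 61.9-fold and at least 60.6-fold lower. GRB7, a signalling adaptor, went from 133 counts to 0, at least 42.0-fold lower. In tet-control BAHCC1 was at 14.9 and 6.96 CPM, KIF24 at 2.98 and 7.33 CPM, and GRB7 at 8.74 and 1.87 CPM, so KIF24 rose there and the other two fell. G0S2, an inhibitor of fat breakdown, went from 147 to 18.04 CPM (change -2.99, control change -1.17), and HPCAL1, a neuronal calcium sensor relative, from 177 to 24.6 CPM (change -2.82, control change -0.20).

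The 7-letter element was found in 331 of 614 lower genes with a 3' UTR (53.9%), in 40 of 187 higher genes (21.4%), and in 27.8% of all. The share went from 70.0% of 50 genes with a change of -2 or below through 52.5% of 564 between -2 and -1 and 43% of 1550 between -1 and -0.5 to 24.4% of those within 0.5 of 0. In tet-control, 25.4% of 248 lower genes and 33.5% of 200 higher genes held it. Among genes without a match 3.57% fell, with 1 match 9.18%, with 2 matches 12.9% and with 3 or more 14.7%, while the shares that fell in tet-control were 2.33%, 2.14%, 2.23% and 1.51%. Among the shortest 3' UTRs (1 of 3 equal classes by length), 50% of the 22 genes with 2 or more matches fell, beside 2.93% of the 3378 without one. In the middle length class the shares were 23.4% of 192 and 3.73% of 2844, and in the longest 10.7% of 921 and 4.56% of 1710.

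The lower genes differed in this respect by their control change. Where the control change lay within 0.5 of 0, 61.5% of 325 held the element, and where it was -0.5 or below, 43.3% of 263 did. Genes nearly absent from tet-control, IL1B, CSF3 and BDKRB2 among them, also count as within 0.5, although their control change says little. The part of such genes in these shares was not tested. Genes lower in both lines held it in 32.4% of 108 cases. Long 3' UTRs hold any short word more often, and the lower genes had a median 3' UTR of 1224.5 bases against 862 for all. Within these classes of 3' UTR length the shares of lower and of all genes were 27.2% and 7.86% in the shortest, 48.5% and 22.3% in the middle, and 71.3% and 53.3% in the longest. By class, 67.3% of lower secreted factors, 55.6% of lower receptors, 64.7% of lower transcription factors and 39.1% of lower kinases held it, beside 40.0%, 44.2%, 35.5% and 31.9% of all measured members of these classes. Lower kinases were thus the class with the smallest gap, and 14 of the 23 had no match.

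**Figure D4:**
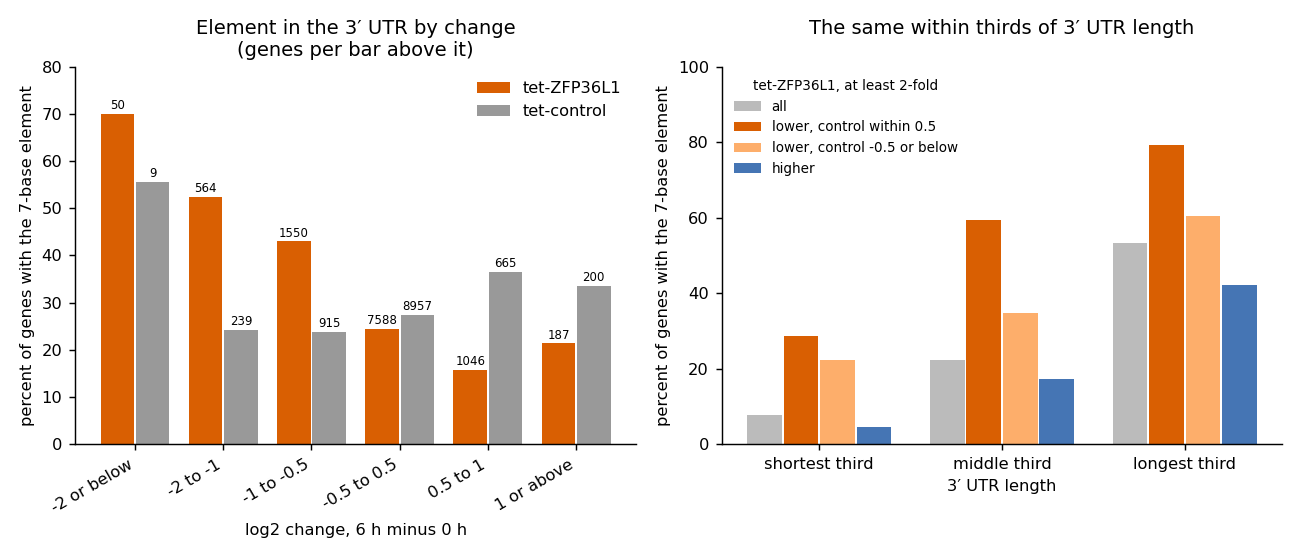
Left, percent of measured genes whose 3' UTR holds the 7-letter element, by log2 change from 0 h to 6 h, in tet-ZFP36L1 (orange) and tet-control (grey), with the number of genes above each bar. Right, the same percent within the 3 classes of 3' UTR length for all genes, genes lower in tet-ZFP36L1 split by their control change, and higher genes. Orange bars descend from 70.0% to 24.4% as the change nears 0, and in each length class the genes lower with a control change within 0.5 stand above the others.

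Rising mRNAs differed in what tet-control did: of the 250, 85 rose there, 66 had a control change from 0.5 to below 1, 83 lay within 0.5 of 0, and 16 were at -0.5 or below. Several genes of the actin cytoskeleton rose in both lines. In a list of 54 measured actin and contractile genes, put together after the rises had been seen, 20 rose in tet-ZFP36L1 (37.0%, beside 2.1% of all measured genes), 10 rose in tet-control, 9 were the same genes, and the medians were 0.58 and 0.51. TLN2 (talin-2) was the 1 gene of the list that fell, in both lines (-1.85 and -1.97). TAGLN (transgelin) went from 27.8 to 386 CPM (change 3.77) and from 79.1 to 389.5 CPM in tet-control (2.29). LCP1 (L-plastin), an actin bundler, went from 2.41 to 121 CPM (change 5.38) and from 0.596 to 5.56 CPM in tet-control (2.47). MYL9, a myosin light chain, changed by 2.05 and 1.21, and ZYX (zyxin) of focal adhesions by 1.90 and 1.34. LIMA1, another actin bundler, was unlike these, with 31.8 then 132 CPM in tet-ZFP36L1 and 30.04 then 29.2 CPM in tet-control.

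Signalling genes that rose in both lines included FGF1, the acidic fibroblast growth factor, from 5.50 to 69.4 CPM (change 3.54) with 1.19 then 12.4 CPM in tet-control (2.93). TNC, the matrix protein tenascin-C, went from 111 to 401 CPM (change 1.85, control change 1.17). The G protein-coupled receptors S1PR1, for sphingosine 1-phosphate, and GPR176, an orphan receptor, changed by 1.82 and 1.31 with control changes of 1.12 and 1.10. Of 43 apoptosis regulators, 3 rose in tet-ZFP36L1 (6.98%, beside 2.1% of all measured genes). In tet-control 6 of the 43 rose, beside 2.43% of all measured genes. The 3 were among these 6: TRAF1 changed by 2.28 and 2.74, BCL2A1 by 1.35 and 1.98, and TNFAIP3 by 1.03 and 1.48. TNFAIP3 went from 153 to 313 CPM and was just short of 2-fold in the deposited TPM and in plain CPM (0.98 in both). These 3 rose less in tet-ZFP36L1 than in tet-control, which was not tested. SPHK1, the sphingosine kinase, went from 15.2 to 98.9 CPM (change 2.66) with a control change of 0.98, short of 2-fold.

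Among genes that rose in tet-ZFP36L1 and not in tet-control, the largest change was that of ROBO2, the receptor of the guidance ligand SLIT, from 5.06 to 484 CPM (change 6.45) with 0.745 and 0.642 CPM in tet-control. STK4 (MST1), the Hippo pathway kinase, went from 122 to 802 CPM (change 2.71, control change 0.21). The histone demethylase genes KDM4A and KDM3B went from 86.3 to 1208 CPM and from 102 to 602 CPM, with control changes of 0.14 and -0.14. Of the 31-base words of KDM4A 39.3% also occur in AL451062.3, so its level is less certain. DLG3, a synaptic scaffold protein, rose from 13.5 to 351 CPM (change 4.65) while it fell from 47.2 to 19.6 CPM in tet-control (-1.25). GLE1, an mRNA export factor (3.70), CYTH1, an ARF activator (3.01), and MAST2, a microtubule-associated kinase (2.84), had control changes of -0.01, -0.19 and 0.01. For GLE1, KDM4A and LCP1, 1 annotated transcript each accounted for 99.5%, 101% and 99.9% of the gene's gain in counts, and for STK4 and ROBO2 1 transcript accounted for 67.9% and 53.0%. In the chosen 3' UTRs of ROBO2 and STK4 the element was not found. AGAP9 also passed 2-fold upward, from 0 to 111 counts, but 89.4% of its 31-base words occur in other genes, and its value is uncertain.

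**Figure D5:**
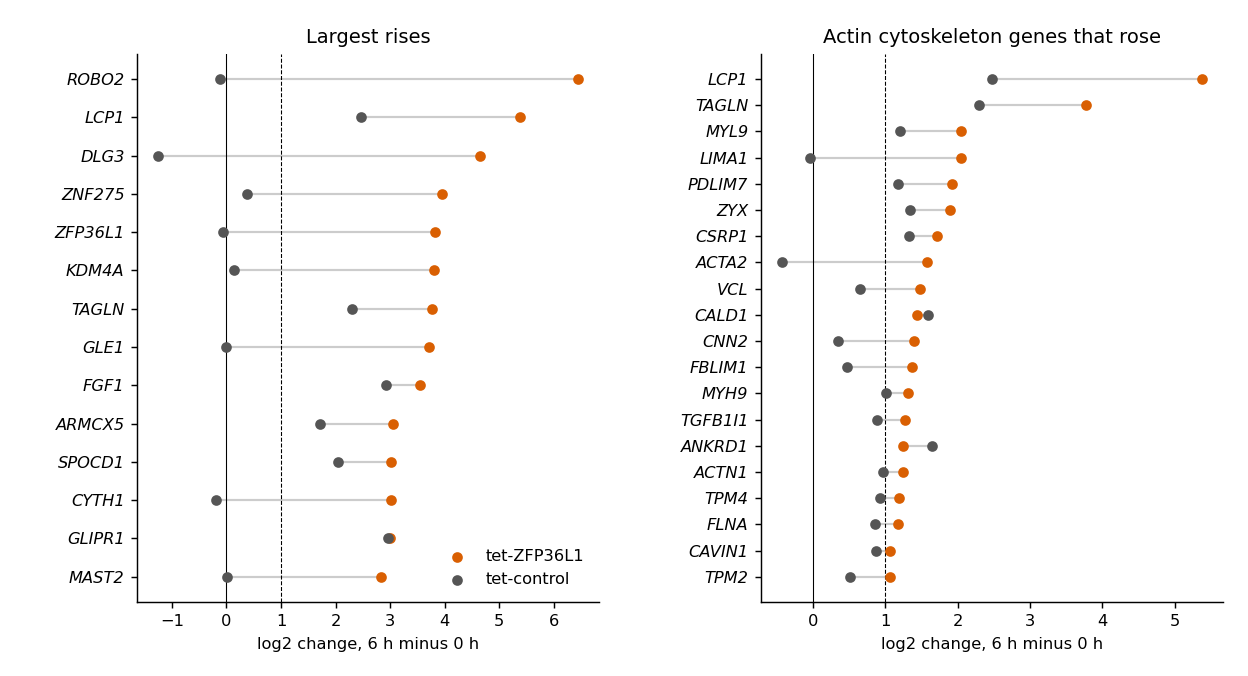
Log2 change from 0 h to 6 h in tet-ZFP36L1 (orange) and tet-control (grey), 1 library per group, for the genes with the largest rises (left) and for the 20 actin cytoskeleton genes that rose (right), with the dashed line at 2-fold. On the left, grey points of ROBO2, KDM4A, GLE1, CYTH1 and MAST2 lie near 0 beside orange points past 2.8, and on the right all grey points but those of LIMA1 and ACTA2 lie above 0.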

How the data were processed

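Per the labels' protocols, RNA of J82 cultures went through BGISEQ-500 libraries, and kallisto, DESeq2 and hg19 are named per the submitters' processing notes, with versions not given in the sources used here. The authors deposited estimated counts and TPM for 196354 transcripts per library. Of these, 181857 matched GENCODE 29 (GRCh38) by ID, and the unmatched held 5.12% to 5.46% of counts. Estimated counts were summed to 52992 genes and rounded. TMM factors (edgeR 4.0.16, R 4.3.3; 0.941 to 1.12) used genes averaging 10 counts or more, and changes used a pseudocount of 0.5 CPM. Python 3.11.15, numpy 2.4.6, pandas 2.3.3 and matplotlib 3.10.9 were used. The calculation was tested on simulated data. Samples were grouped by title, and no test was possible with 1 library per group.

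Functional lists (28 groups in 5 classes) and members were chosen with earlier results of these data known. Named genes were the ZFP36 family, the 15 largest falls and rises, up to 5 falls and 3 rises per group, and up to 3 steady genes of highest level per main class. IL6, CXCL1, LIF, TNF and genes of the lists so described were named after their values were seen. Genes that share at least 50% of their 31-base words with another gene are given as uncertain. The 3' UTR was that of the transcript of highest mean TPM with a stop codon, of at least 50 bases, and its deposited length equalled that of GENCODE 29 in 86.6% of genes. Alternatives were DESeq2 1.42.0 size factors, plain CPM, the deposited TPM, other filters, pseudocounts, thresholds and motifs, and 4 libraries alone. Limits by counting interval, start level and tet-control level or change, and the marker sum without FN1, were added after seeing the data. Intervals and floors cover counting error only. Some results are not reported here.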

Additional observations from a re-analysis of the deposited data

Results flagged for a closer look

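Among the named genes, opposite directions in the lines, past 2-fold in each, were seen for DLG3, KIF24, PHLDA2, PLAUR and IL6. Among all measured genes, 12 of the 647 lower genes rose in tet-control, and 10 of the 250 higher genes fell there. In tet-control 2.43% of all measured genes rose and 2.23% fell. DLG3 rose in tet-ZFP36L1 and fell in tet-control, and the former change exceeded the latter by 5.90. KIF24, PHLDA2, PLAUR and IL6 fell in tet-ZFP36L1 and rose in tet-control, with differences of -5.48, -3.20, -2.38 and -3.40. The value of KIF24 rests on a 6 h library with 0 counts and depends on the pseudocount. With 1 library per group, none of these differences was tested.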

How the results depend on the processing

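No paired analysis was possible because each line and time had 1 library. For the same reason no replicate could be left out. No named gene past 2-fold changed sign under any alternative. CCNB1, PKM and SRPK1, named as steady genes, did, within 0.1 of 0. The 647 lower genes became 412 with a mean count of at least 200, 303 with a pseudocount of 5 CPM, 1855 at a 1.5-fold threshold, 303 with a fall at least 2-fold beyond that of tet-control, 365 with the whole counting interval past 2-fold, and 340 with a tet-control change within 0.5 of 0. The 250 higher genes became 417 with a mean count of at least 10, 147 with at least 200, 119 with a pseudocount of 5 CPM, 1082 at 1.5-fold, 88 beyond tet-control, 139 by the whole interval, and 83 with tet-control within 0.5. The 49 lower secreted factors became 30 with a pseudocount of 5 CPM, 85 at 1.5-fold, 32 beyond tet-control, 23 among genes within 2-fold of tet-control at 0 h, and 25 with tet-control within 0.5. The 45 lower receptors became 26 with a mean count of at least 200, 18 with a pseudocount of 5 CPM, 88 at 1.5-fold, 20 beyond tet-control, 27 by the whole interval, and 21 with tet-control within 0.5. The 51 lower transcription factors became 28 with a mean count of at least 200, 26 with a pseudocount of 5 CPM, 103 at 1.5-fold, 24 beyond tet-control, and 24 with tet-control within 0.5. The 23 lower kinases became 15 with a mean count of at least 200, 71 at 1.5-fold, 13 beyond tet-control, and 15 with tet-control within 0.5. Stricter thresholds and fewer genes lower these counts by their construction.

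The share of lower genes with the element was 31.9% for the 8 letters TATTTATT, 83.1% for ATTTA and 58.8% in the longest annotated 3' UTR, beside 15.8%, 65.3% and 36.2% of all genes. Of 176 named genes past 2-fold, 115 were past it under every alternative scale, filter and pseudocount. A pseudocount of 5 CPM took 49 of the 176 below it, and the deposited TPM took 27. Counting error limits genes at low levels most.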

Other observations

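In a list of 72 measured Golgi sugar transferases and sulfotransferases, assembled after values had been seen, 16 fell in tet-ZFP36L1 (22.2%, beside 5.43% of all measured genes) and 1 rose (1.39%, beside 2.1%), with a median change of -0.48, while 4 fell in tet-control, where the median was -0.16. CSGALNACT1, which starts chondroitin chains, went from 9.53 to 0.674 CPM (change -3.09, control change -0.58). UGCG, which makes glucosylceramide, went from 254 to 77.4 CPM (change -1.71, control change -0.47), and B4GALT5, a galactosyltransferase, from 299 to 123.02 CPM (change -1.28, control change 0.02). MGAT3, which adds the bisecting sugar of N-glycans, fell in both lines (-2.32 and -1.86).

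Other lists were also chosen after values had been seen. Beside them, 2.1% of all measured genes rose in tet-ZFP36L1 and 2.43% rose in tet-control. Of 23 genes of the amino acid stress response, 4 rose in each line (17.4% in tet-ZFP36L1), 2 of them the same genes, and the medians were 0.52 in tet-ZFP36L1 and 0.63 in tet-control. Of 13 mitochondrially encoded genes, 6 rose in each line (46.2% in tet-ZFP36L1), 3 of them the same genes, with medians of 0.98 and 0.89. Their part in the scaling of the other genes was not tested.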
